A study of Mus musculus with 4 samples.

Results

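Oxidative phosphorylation is the final stage of mitochondrial energy production. Complexes I to IV of the inner membrane pass electrons from NADH and succinate to oxygen and, with the exception of complex II, pump protons, and complex V (ATP synthase) uses the returning protons to make ATP. Most subunits are encoded in the nucleus, translated in the cytosol and imported, and neurons depend on this pathway for most of their ATP. The mRNAs of its nuclear-encoded subunits in the medial prefrontal cortex (mPFC) are described here for stressed and control mice.

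The genes were chosen by symbol alone, as those beginning with Ndufa, Ndufb, Ndufc, Ndufs, Ndufv, Uqcr, Cox4 to Cox8 or Atp5, together with Sdha, Sdhb, Sdhc and Sdhd. This gave 91 genes of 17778 in the deposited table. The rule uses no measured value, but the set was chosen with earlier results of these data known. Of the 91, 82 encode subunits or their paralogs, 7 (Ndufaf1 to Ndufaf7) are complex I assembly factors caught by the symbol, and 2 (Atp5s and Atp5sl, now called Dmac2l and Dmac2) are not subunits. Ndufa4 and Ndufa4l2 were placed with complex IV, to which Ndufa4 belongs despite its name. Cyc1 (cytochrome c1 of complex III) and a few newer subunits are missed by the symbols and were kept as a separate list. Subunits encoded in mitochondrial DNA are outside the symbols too, so values given for a complex cover only its genes in the set.

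The study asked which mRNAs differ in the mPFC of mice in a depression-like state. All mice were male C57BL/6 (C57BL/6J in the methods), juvenile at the start. The CUMS group (2 libraries) had gone through weeks of chronic unpredictable mild stress (social isolation, restraint, tilted, empty or damp cages, noise, strobe light and disturbed day-night cycle), and the mice used were those whose behavior had shifted in every test applied. The control group (2 libraries) was not stressed and took the same tests. No transgene or drug is stated for either group. Tissue of both hemispheres was taken a day after the tests. The mice were thus selected for their response to stress, and it is not stated whether a library held RNA of 1 mouse.

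Values were RPKM, that is reads scaled to gene length and to the reads of the library. The table gave 1 mean per gene for the control group and 1 for the CUMS group, with no value for a single library. There is therefore no replicate check of any difference below, and none can be called significant. A gene is described by both means, by the log2 of CUMS over control, and by a 95% counting interval of that log2 ratio. The interval is an exact Clopper-Pearson interval on fragment numbers estimated from the low values of the table, which put each control library at 7423905 fragments and each CUMS library at 7485030. It covers counting error only, not the spread between mice. The depth is an estimate below the read numbers that the study gives, and larger depth would make the intervals narrower.

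The tissue carried the markers of neocortex, with Slc17a7 (vesicular glutamate transporter of excitatory neurons) at 635 RPKM in control and 791 RPKM in CUMS. Marker lists of several cell types differed between the groups. The 12 excitatory neuron markers summed to 2315 RPKM in control against 2848 RPKM in CUMS, with 11 of 12 higher in CUMS. The 10 GABAergic markers summed to 828 RPKM and 718 RPKM, with 7 of 10 lower. The other 3 were higher, with log2 ratios of 0.19 for Pvalb, 0.054 for Sst and 0.51 for Vip. Only the interval of Vip (0.31 to 0.71) excluded 0 among these 3. The 10 oligodendrocyte markers summed to 1966 RPKM and 1345 RPKM, with 9 of 10 lower. Of all genes tested, 46.6% were higher and 53.2% lower. All 6 red blood cell markers tested were higher in CUMS (sum 342 RPKM against 594 RPKM), and all 7 striatal markers were lower (sum 339.5 RPKM against 290.4 RPKM). None of these lists is at 0 in either group. Their part in the values below was not tested, and in bulk tissue a lower number of cells of a type cannot be told apart from less RNA per cell.

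Transcription of many nuclear-encoded subunits is known to be driven by NRF1, by the ETS factor GABP, by YY1 and by estrogen-related receptors. Promoter windows from 250 bases before to 50 bases after a transcription start (RefSeq, build GRCm38.p6) were at hand for 76 of the 91 genes. The NRF1 motif GCGCANGCG, searched on both strands, was in the windows of 22 of these 76 genes (28.9%), while 14.3% of the 11280 tested genes with a window held it. The sequences below are shown as examples of this motif, which of the motifs for these factors was in the most genes of the set. Capitals mark the motif, and each stretch lies before the start, outside the span of its own gene, and is written 5′ to 3′ on the strand of the gene, here the minus strand.

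Cox6a1, chr5:115349057-115349085, motif beginning 117 bases before the start: cggataaagtGCGCAGGCGctggagttcc

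Sdha, chr13:74350320-74350348, 98 bases before the start: cgtttacaggGCGCAGGCGcaccaccact

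Sdhd, chr9:50603910-50603938, 79 bases before the start: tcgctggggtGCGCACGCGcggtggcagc

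Ndufb4, chr16:37654429-37654457, 79 bases before the start: ccttgtgcgcGCGCAGGCGcacttcctga

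Ndufs5, chr4:123718266-123718294, 98 bases before the start: gctgcttgctGCGCAGGCGcagacccgct

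Atp5g2, chr15:102671071-102671099, 42 bases before the start: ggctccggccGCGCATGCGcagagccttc

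The YY1 motif AAGATGGC was in 11 of the 76 genes (14.5%, against 4.89% of all), and the ETS motif CCGGAAG in 17 (22.4% against 18.3%). The receptor motif TCAAGGTCA was in 2 (2.63% against 0.39%). A TATA box (TATAAA) was about as frequent as among all genes (9.21% against 8.71%), and the GC box GGGCGG was in 44.7% against 68.2%. The windows had a median GC content of 58.0% against 60.7%, and a gene of the set had fewer windows than others (82 for 76 genes, 14465 for 11280). Motifs of this length can overlap each other, and a match is a description of the letters, not of a bound site.

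The mRNAs of oxidative phosphorylation were abundant in both groups. The 91 genes made up 3.37% of summed RPKM in control and 3.31% in CUMS. Their fragments were 1.09% and 1.07% of the total, since the transcripts are short. The 89 genes tested (a minimum of 0.5 RPKM in 1 of the groups) had a median of 111 RPKM in control against 103 RPKM in CUMS, while the median over all 14257 genes tested was 9.03 RPKM and 8.79 RPKM. Of the 500 genes with the highest control mean 32 were of this set, and 31 of the 500 highest in CUMS. Levels were 50 RPKM or more in both groups for 72 genes and under 10 RPKM in both for 12. The latter were tissue-restricted isoforms of complex IV, most of the assembly factors and Atp5s.

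**Figure D1:**
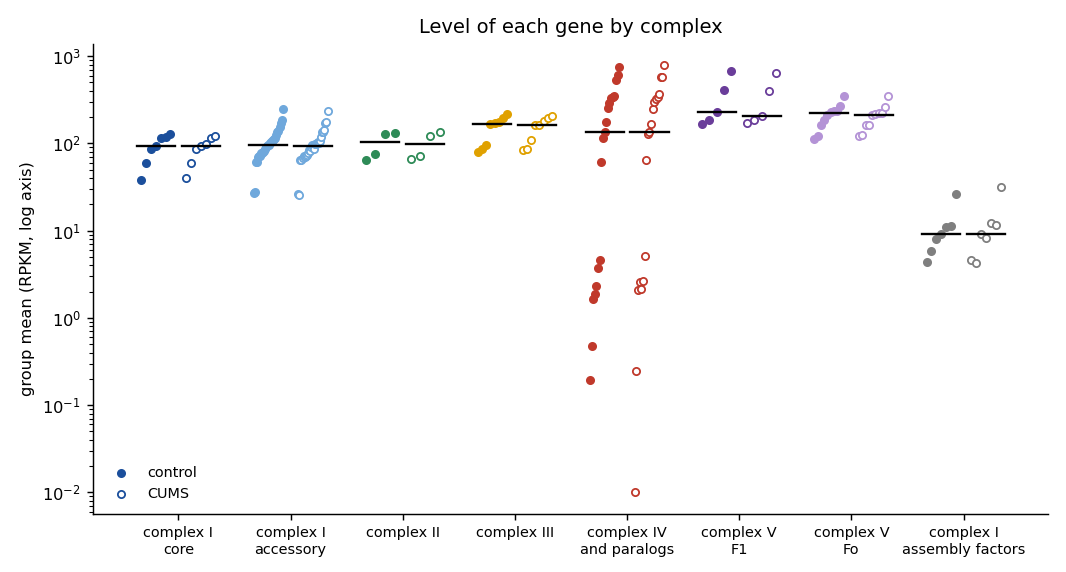
Group mean of each gene in RPKM (log axis) by complex, filled points for control and open points for CUMS, with the median of each group as a bar. Most subunits lie between 25 and 800 RPKM in both groups, while 7 paralogs of complex IV subunits and most complex I assembly factors lie far lower.

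The levels in both groups were nearly the same. None of the 89 genes differed by more than 1.5-fold, while 7.20% of all genes tested did. At 5 RPKM or more the count was 0 of 84, beside 1.60% of all genes at that level. Over the 75 subunits of 20 RPKM or more, every log2 ratio lay within 0.2 of 0, and 62 lay within 0.1. Pearson's r between the log2 levels of both groups was 0.997 across these 75 genes, which share their libraries and are not independent replicates. The log2 ratio was only weakly related across them to gene length (r = 0.20), transcript GC content (r = -0.18) or level (r = -0.0099).

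**Figure D2:**
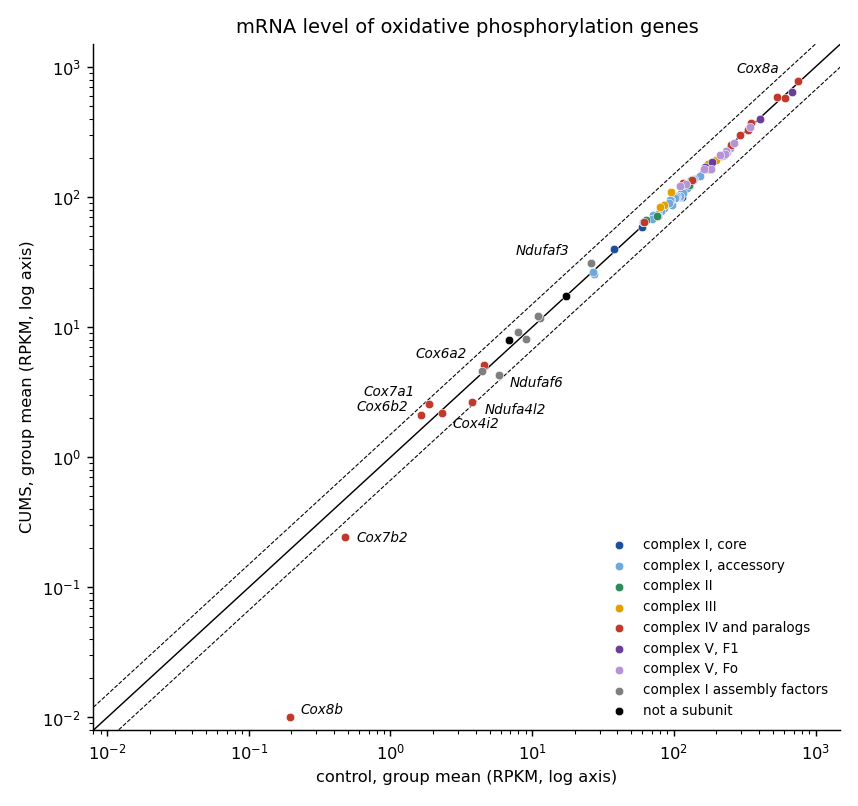
CUMS mean against control mean of the 91 genes in RPKM (both axes log), colored by complex, with the line of equality and dashed lines at 1.5-fold. Points above 20 RPKM lie on the line, and the 2 outside the dashed lines, Cox7b2 and Cox8b, rest on a handful of fragments or fewer.

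The spread of log2 ratios was narrower than among all other mRNAs at 50 RPKM or more, whose median control level was lower (88.7 RPKM against 129 RPKM). Of the 72 genes at 50 RPKM or more in either group, 60 (83.3%) had a log2 ratio within 0.1 of 0 and all were within 0.2. Of the 1613 other genes at that level, 57.8% were within 0.1 and 86.4% within 0.2. The quartiles of the 72 were -0.066 and 0.020, and those of the others -0.066 and 0.10. These are descriptions, since genes are not replicates and most of the set are short. The interquartile range was 0.086 for the 72 genes. Other lists, taken at all levels tested, were as narrow, with 0.080 for glycolysis, 0.092 for the TCA cycle and 0.10 for cytosolic ribosomal proteins. Mitochondrial membrane transport (0.13), proteasome (0.17) and mitochondrial ribosomal protein genes (0.18) were wider. Among genes under 1000 bases at 50 RPKM or more it was 0.086 for 53 of the set and 0.15 for 218 others.

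**Figure D3:**
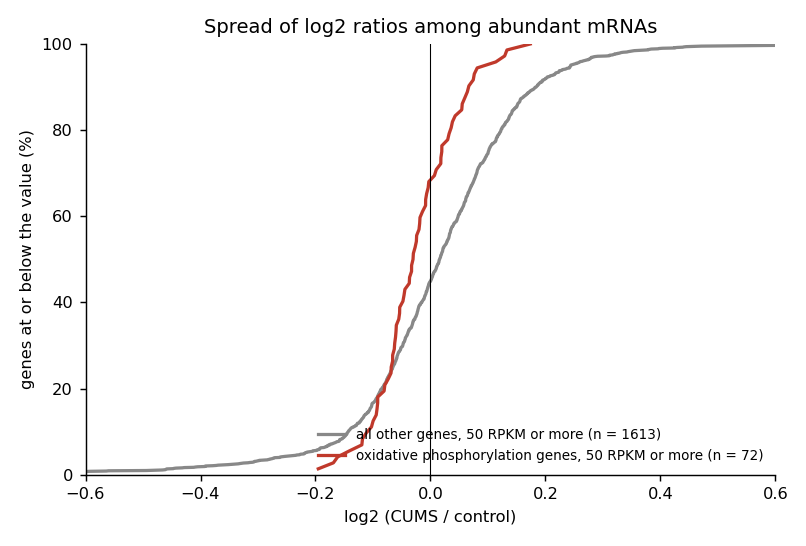
Cumulative share of genes (%) by log2 ratio of CUMS over control, for the 72 oxidative phosphorylation genes and the 1613 other genes at a level of 50 RPKM or more. The curve of the 72 genes is steeper and lies entirely within 0.2 of 0, and 68.1% of it is at negative values.

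The center of the set was slightly on the lower side. Of the 89 genes, 34 had the higher mean in CUMS (46.6% of all genes tested did) and 55 the lower (53.2% of all genes). Their median log2 ratio was -0.025, beside -0.015 over all genes tested. Rescaling the CUMS values moved all ratios by -0.0076 (equal totals) or by 0.015 (median of all genes at 0), so that the median of the set was -0.032 or -0.0094. The 53 genes under 1000 bases and at 50 RPKM or more showed a median of -0.033 (39 of 53 lower), and for the 218 other genes of that length and level it was -0.00089 (109 of 218 lower).

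Counting intervals lay above 0 for 6 of the 89 genes (12.6% of all genes tested) and below 0 for 10 (16.8% of all). The count below 0 was 5 with CUMS rescaled so that all genes center on 0, and 3 or 21 if depth was 0.5 or 2 times the estimate. At 50 RPKM or more they lay above 0 for 5 of 72 and below 0 for 10 of 72, beside 32.3% and 22.4% of all genes at that level. Among genes under 1000 bases at that level, where intervals are of similar width, 3 and 8 of 53 lay above and below 0, and 33 and 34 of the 218 others. The shares over the whole set, 6.74% above and 11.2% below, were under those of the table, and the difference was not tested.

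Near copies limit some of these values. In 29 of the 91 genes a stretch of at least 100 bases matched another annotated gene at 97% identity or more, mostly by a processed pseudogene or by overlap with a neighbor, and in 12 the match covered over 50% of the transcript. Reads were kept only where they aligned uniquely, so genes with a copy elsewhere can have lost reads. Where a gene overlaps a neighbor, reads of the neighbor could have been counted, since the use of strand is not given. Neither was tested. Without all 29, counting intervals lay below 0 for 5 genes, among them Ndufs7, Ndufa6, Atp5e and Atp5b.

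**Figure D4:**
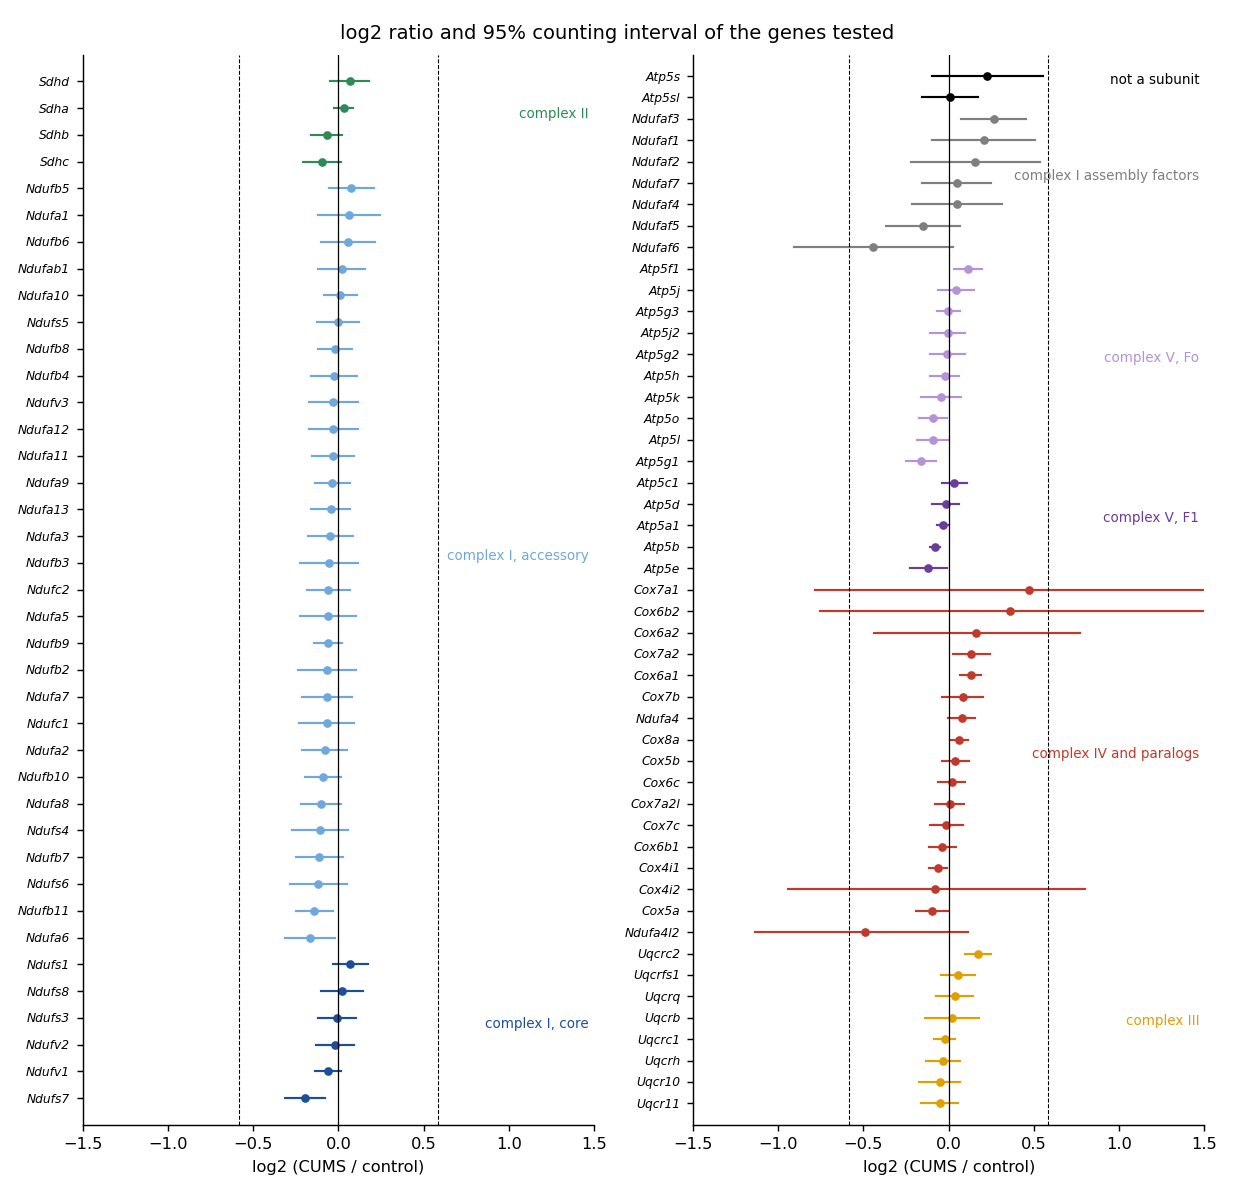
Log2 ratio of CUMS over control for the genes tested that are reported here (points) with its 95% counting interval (lines), ordered by complex, with dashed lines at 1.5-fold. Complex I and V lie mainly left of 0, complex IV mainly right of it, and the widest intervals belong to genes under 10 RPKM.

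Complex I (NADH dehydrogenase), the entry point for electrons of NADH, had a share of lower genes like that of complex V but a larger median shift. Of its subunits 29 of 36 (80.6%) had the lower mean in CUMS, beside 80.0% in complex V and 53.2% of all genes tested. All 36 subunits of complex I in the set passed the minimum. Their median log2 ratio was -0.052, beside -0.024 for complex V and -0.015 over all genes tested. With CUMS rescaled so that all genes center on 0, the medians were -0.036 for complex I and -0.0089 for complex V. They summed to 3617 RPKM in control against 3489 RPKM in CUMS. The pooled fragments of the 36 were lower by 3.22% in CUMS (log2 ratio -0.047, counting interval -0.067 to -0.028), and the interval stayed below 0 under both rescalings. Large pools have small counting error, and other pools also lay off 0. Intervals were -0.037 to -0.020 for cytosolic ribosomal proteins, -0.050 to -0.013 for the TCA cycle and 0.0024 to 0.019 for glycolysis. For other genes of 50 RPKM or more it was 0.022 to 0.024. Those of proteasome and mitochondrial ribosomal protein genes included 0. A pooled interval off 0 is thus not particular to a complex. Taken singly, 4 of 36 intervals lay below 0 and none above, a share of 11.1% beside the 16.8% of all genes.

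Among the 7 core subunits in the set, which carry the electrons, 5 were lower in CUMS. Ndufs7, which holds the iron-sulfur cluster next to quinone, had 114 RPKM in control and 99.6 RPKM in CUMS. This gave a log2 ratio of -0.20 (interval -0.31 to -0.079), the lowest of all subunits at 20 RPKM or more. On the other side were Ndufs1, the large iron-sulfur subunit, with 38.1 RPKM and 40.0 RPKM (log2 ratio 0.070), and Ndufs8, another iron-sulfur subunit, with 85.3 RPKM and 86.5 RPKM (0.020). The intervals of both included 0.

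Of the 29 accessory subunits, which surround the core, 24 were lower in CUMS, with a median log2 ratio of -0.055. Ndufb9 was the most abundant, at 249 RPKM in control and 238 RPKM in CUMS, and its interval of -0.15 to 0.020 included 0. The lowest ratio was that of Ndufa6, with 96.9 RPKM and 86.2 RPKM (log2 ratio -0.17, interval -0.32 to -0.022). Next was Ndufb11, an X-linked subunit of the membrane arm, with 111 RPKM and 101 RPKM (-0.14, interval -0.25 to -0.031), whose transcript partly matches that of Rbm10. The highest were Ndufb5 with 60.8 RPKM and 64.0 RPKM (0.074) and Ndufa1 with 61.9 RPKM and 64.8 RPKM (0.064), both with intervals that included 0. The accessory levels ranged over 9.25-fold in control, from Ndufa11 at 26.9 RPKM to Ndufb9, and the ratio of these genes was 9.05 in CUMS.

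The 7 assembly factors, which build complex I and do not stay in it, were at far lower levels and varied more. They summed to 75.8 RPKM in control against 81.5 RPKM in CUMS, with 5 of 7 higher and a median log2 ratio of 0.049. Ndufaf3, which acts early in assembly, was the most abundant with 26.1 RPKM in control and 31.3 RPKM in CUMS. Its log2 ratio of 0.26 (interval 0.075 to 0.45) was the highest among all genes at 20 RPKM or more of the set. Ndufaf1, a factor for the membrane arm, had 7.99 RPKM and 9.22 RPKM (0.21, interval -0.096 to 0.51). Ndufaf6 had 5.84 RPKM and 4.30 RPKM (-0.44, interval -0.90 to 0.025), and Ndufaf5, which modifies Ndufs7, had 9.06 RPKM and 8.15 RPKM (-0.15, interval -0.37 to 0.066). Pooled over the 7, the interval of -0.028 to 0.16 included 0.

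Complex II (succinate dehydrogenase), which is also an enzyme of the TCA cycle, showed no common direction. The flavoprotein Sdha had 131 RPKM in control and 134 RPKM in CUMS (log2 ratio 0.030), and the iron-sulfur subunit Sdhb had 129 RPKM and 123 RPKM (-0.069). Of the membrane anchors, Sdhc had 76.4 RPKM and 71.5 RPKM (-0.094) and Sdhd 63.9 RPKM and 67.0 RPKM (0.067). No interval excluded 0. Sdha was 2.06 times Sdhd in control and 2.00 times in CUMS, and the pooled log2 ratio was -0.00096 (interval -0.041 to 0.039).

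Complex III (cytochrome bc1), which passes electrons from quinol to cytochrome c, was split evenly, with 4 of 8 higher and a summed level of 1187 RPKM in both groups. The pooled log2 ratio was 0.024 (interval -0.0086 to 0.058), and with CUMS rescaled so that all genes center on 0 the interval lay above 0 (0.0065 to 0.073). Cyc1, the cytochrome c1 of this complex, is outside these 8 genes by its symbol and was lower in CUMS (log2 ratio -0.093, interval -0.17 to -0.013). No pool with Cyc1 was made, so the pooled values do not describe the whole complex. Uqcrc2, a large core protein, had 96.2 RPKM in control and 109 RPKM in CUMS. Its log2 ratio of 0.17 (interval 0.098 to 0.25) was the highest of all subunits at 20 RPKM or more, and 26.7% of its transcript matches that of its neighbor Pdzd9. Its partner Uqcrc1 had 166 RPKM and 164 RPKM (-0.025). The Rieske protein Uqcrfs1 had 80.4 RPKM and 83.6 RPKM (0.055), and the small subunits Uqcr11 (216 RPKM and 208 RPKM, -0.054) and Uqcr10 (169.9 RPKM and 164 RPKM, -0.053) were at the low end, all with intervals that included 0.

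Complex IV (cytochrome c oxidase) reduces oxygen to water and was the complex with most of its genes on the higher side. Of 19 genes, 17 passed the minimum, and 11 of 17 were higher in CUMS with a median log2 ratio of 0.038. The median was 0.0021 after correction for mean level. Together they had 3962 RPKM in control against 4042 RPKM in CUMS. Pooled fragments were higher by 1.79% (log2 ratio 0.026, interval 0.0044 to 0.047), and under rescaling to equal totals the interval of -0.0033 to 0.039 included 0. The 12 genes at 50 RPKM or more stood at 8 of 12 higher.

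Cox8a, a small membrane subunit, was the most abundant mRNA of the whole set, with 754 RPKM in control and 786 RPKM in CUMS (log2 ratio 0.060, interval 0.0089 to 0.11). Cox6a1 had 532 RPKM and 582 RPKM (0.13, interval 0.069 to 0.19), and Cox7a2 had 116 RPKM and 127 RPKM (0.13, interval 0.023 to 0.24). All of these are the forms found in most tissues. Lower in CUMS were Cox4i1, the subunit through which ATP regulates the enzyme, with 605 RPKM and 579.8 RPKM (-0.062, interval -0.11 to -0.010), and Cox5a with 177 RPKM and 165 RPKM (-0.100, interval -0.19 to -0.0048). Subunits of the same enzyme thus lay on both sides of 0, and both lower genes share a stretch with a neighboring transcript.

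Several complex IV subunits have tissue-restricted paralogs, and in the mPFC the common form was the dominant one in every pair. Cox4i1 was 264 times its lung paralog Cox4i2 in control and 267 times in CUMS, where Cox4i2 had 2.30 RPKM and 2.17 RPKM. Cox6a1 was 117 and 114 times the heart and muscle form Cox6a2, which had 4.56 RPKM and 5.10 RPKM. Cox6b1 (334 RPKM and 326 RPKM) was 202 and 154 times the testis form Cox6b2, at 1.65 RPKM and 2.12 RPKM. Cox7a2 was 62.5 and 49.4 times the muscle form Cox7a1, at 1.86 RPKM and 2.58 RPKM. These shifts of ratio rest on the low forms, whose counting intervals all included 0.

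Ndufa4 had 352 RPKM in control and 371 RPKM in CUMS (log2 ratio 0.076, interval -0.0018 to 0.15), and its hypoxia-induced paralog Ndufa4l2 had 3.76 RPKM and 2.67 RPKM. The log2 ratio of Ndufa4l2, -0.49 (interval -1.14 to 0.11), and that of Cox7a1, 0.47 (interval -0.78 to 1.70), were the extremes among the 89 genes. Cox7a2l, which joins complexes III and IV into supercomplexes, was at 134 RPKM in both groups. Cox7b had 61.2 RPKM and 64.7 RPKM (0.081), and its paralog Cox7b2 had 0.48 RPKM and 0.245 RPKM, about 4 and 2 fragments (log2 ratio -0.97, interval -4.48 to 1.79). Cox8b had 0.195 RPKM in control, about 1 fragment, and is listed at 0.01 in CUMS, the lowest value of the table, so no fold is given. Cox7b2 and Cox8b were the 2 genes under the minimum.

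Complex V had most of its genes on the lower side, like complex I, but with a smaller median shift. Of its 15 genes 12 were lower in CUMS, with a median log2 ratio of -0.024, which was -0.0063 after correction for GC content and -0.057 after correction for mean level. Together they had 3768 RPKM in control against 3657 RPKM in CUMS. Pooled fragments were lower by 2.91% (log2 ratio -0.043, interval -0.059 to -0.026), and the interval stayed below 0 under both rescalings. Atp5b alone held 18951 of the 61292 fragments of the complex in control and 18084 of 59997 in CUMS. No pool without Atp5b was made, so the result under rescaling may rest on this gene. With CUMS rescaled so that all genes center on 0, the F1 interval was -0.056 to -0.016. The Fo interval, -0.038 to 0.018, then included 0.

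In the F1 head, where ATP is made, 4 of 5 were lower. The catalytic subunit Atp5b had 679 RPKM in control and 643 RPKM in CUMS (log2 ratio -0.079, interval -0.11 to -0.050), and its partner Atp5a1 had 406 RPKM and 397 RPKM (-0.033, interval -0.066 to 0.00032). The epsilon subunit Atp5e had 227 RPKM and 209 RPKM (-0.12, interval -0.23 to -0.0094). The delta subunit Atp5d had 187 RPKM and 185 RPKM (-0.018), and the rotating gamma subunit Atp5c1 had 167 RPKM and 170.3 RPKM (0.032). Although a head holds several copies of Atp5a1 and Atp5b and a single gamma subunit, mRNA levels cannot be read as protein, and Atp5b was 4.08 times Atp5c1 in control and 3.78 times in CUMS.

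In the Fo membrane part and its stalk, 8 of 10 were lower. Atp5g1, Atp5g2 and Atp5g3 encode the same mature c subunit of the rotor ring. Atp5g3, the most abundant, had 346 RPKM in control and 345 RPKM in CUMS, and Atp5g2 had 164 RPKM and 163 RPKM. Atp5g1 had 184 RPKM and 164 RPKM (log2 ratio -0.16, interval -0.25 to -0.073), the lowest of the part, and a pseudogene copy covers over 50% of its transcript. Together the 3 genes had 694 RPKM and 673 RPKM. At the other end, Atp5f1 of the stalk had 111 RPKM and 120.5 RPKM (0.11, interval 0.034 to 0.19), also with a copy of over 50%. Atp5j of the stalk had 122 RPKM and 126 RPKM (0.043) and Atp5l 236 RPKM and 221 RPKM (-0.092), both with intervals that included 0, and the stalk protein Atp5o had 229 RPKM and 215 RPKM (-0.092, interval -0.17 to -0.012). Near copies cover 80.3% of the transcript of Atp5o and 72.2% of that of Atp5l. The pooled interval of the part, -0.053 to 0.0027, included 0, and with CUMS rescaled to equal totals it lay below 0 (-0.061 to -0.0050).

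Genes that act with the set but have other symbols were also at near-equal levels. Cyc1 had 147 RPKM in control and 138 RPKM in CUMS (log2 ratio -0.093, interval -0.17 to -0.013), and Cycs, the electron carrier cytochrome c, had 42.3 RPKM and 42.6 RPKM (0.0071). The 6 complex V genes tested outside the symbols had a median of -0.0044. They ranged from Tmem70, a membrane assembly factor, at -0.079 to Atpif1, the inhibitor of ATP synthase, which had 204 RPKM and 221 RPKM (0.12, interval 0.020 to 0.21). The 18 complex IV assembly genes had a median of -0.0081, with 7 higher and 11 lower, from Taco1 at -0.18 to Cox16 at 0.26, and no interval excluded 0.

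Assembly genes of the other complexes were low and more variable. Of the 7 further complex I factors 5 were lower in CUMS, with a median log2 ratio of -0.026. Ecsit, the most abundant, had 31.4 RPKM in control and 27.8 RPKM in CUMS (-0.18, interval -0.33 to -0.029). Nubpl, which delivers iron-sulfur clusters, had the highest ratio of the list with 2.65 RPKM in control and 3.95 RPKM in CUMS (0.58, interval 0.048 to 1.15), just inside 1.5-fold, and Timmdc1 had the lowest with 10.1 RPKM and 8.58 RPKM (-0.23). Of 6 complex II and III assembly genes tested, 5 were higher in CUMS, with a median of 0.067. Lyrm7, needed to insert the Rieske protein, had 3.90 RPKM and 5.18 RPKM (0.41, interval 0.070 to 0.76), Sdhaf1, needed for Sdhb, had 12.6 RPKM and 16.3 RPKM (0.37, interval 0.087 to 0.65), and Uqcc was lowest with 20.8 RPKM and 19.0 RPKM (-0.13).

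The regulators of mitochondrial gene expression were low-level genes. Of 12 regulators 8 were lower in CUMS (53.2% of all genes were), with a median log2 ratio of -0.094, and 3 of 12 intervals lay below 0 (16.8% of all) and none above. Their ratios had an interquartile range of 0.28, beside 0.27 over all genes tested, and their difference from the subunits was not tested. Ppargc1a, the coactivator PGC-1alpha that raises transcription of mitochondrial genes, had 5.05 RPKM in control and 3.68 RPKM in CUMS (-0.46, interval -0.66 to -0.26). Its partner Esrra, an estrogen-related receptor, had 26.8 RPKM and 22.2 RPKM (-0.27, interval -0.41 to -0.13). Gabpa, the DNA-binding part of GABP, had 4.37 RPKM and 3.52 RPKM (-0.31, interval -0.56 to -0.078), and its transcript overlaps that of Atp5j.

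Other regulators had intervals that included 0. Nrf1 had 7.01 RPKM in control and 6.16 RPKM in CUMS (log2 ratio -0.19), and Tfam, which packs mitochondrial DNA and starts its transcription, had 7.72 RPKM and 7.29 RPKM (-0.084). Ppargc1b (-0.19), Pprc1 (-0.10) and the mitochondrial RNA polymerase Polrmt (-0.064) were lower as well. Yy1 (0.055), Gabpb1 (0.10), Tfb2m (0.10) and Tfb1m (0.30) were higher. Regulators were at 1.92 to 26.8 RPKM in control, so that a difference of the size seen in the subunits would not be detectable for them at this depth. The GABAergic markers, whose sum was lower in CUMS although Pvalb, Sst and Vip were higher, are given above. Their part in the Ppargc1a value was not tested.

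**Figure D5:**
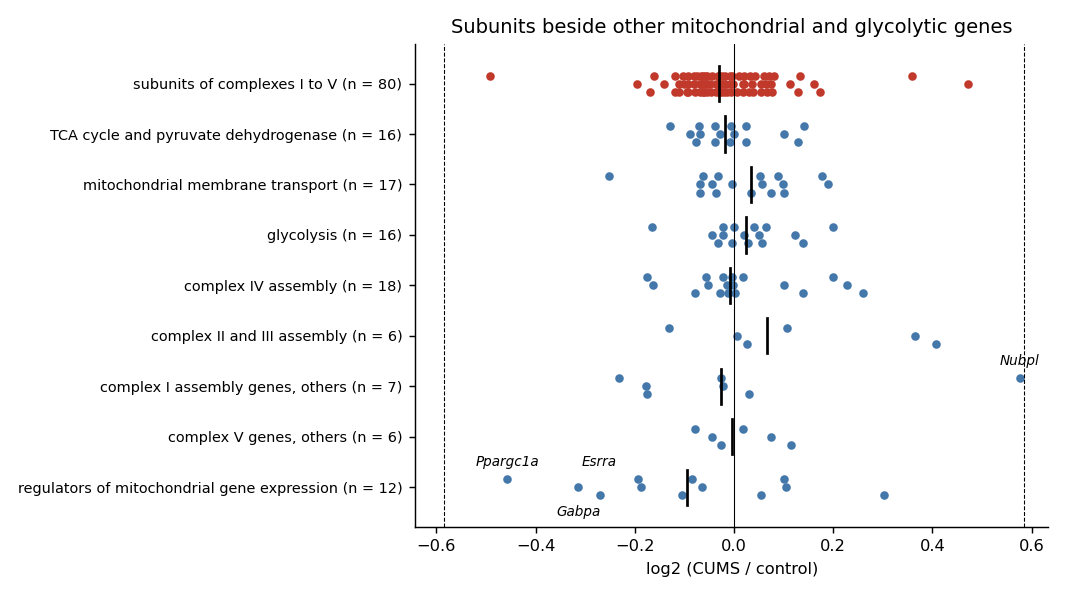
Log2 ratio of CUMS over control for the 80 subunits tested (red) and for genes of 8 related lists (blue), with the median of each list as a bar and dashed lines at 1.5-fold. Subunits crowd around a median of -0.030, and the regulators are spread from -0.46 to 0.30 with a median of -0.094.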

How the data were processed

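Poly(A) RNA of mouse mPFC (2 control and 2 CUMS libraries) was sequenced by the authors as paired reads on an Illumina HiSeq, trimmed with SolexaQA and aligned to mm10. The submitters' processing notes name TopHat 1.0.12 and Bowtie 0.11.3. Unique reads were turned into RPKM, and the authors deposited the mean RPKM of each group, the gene length, and a log2 ratio, direction and NOISeq probability of their own comparison, which were not used. The annotation and the use of strand are not given in the sources used here.

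Genes that reached 0.5 RPKM in 1 group or both were tested for fold (1.5) and counting interval. Depth was estimated from genes under 1000 bases, where 1 fragment adds a fixed step to mean times length. The steps were 67.4 and 66.8 RPKM times bases, and 86.9% and 87.5% of 406 and 392 values were whole multiples of a step to within 0.15. Fragment numbers assume equal depth of the libraries in a group. Clopper-Pearson 95% intervals came from scipy 1.17.1 under Python 3.11.15, and PCR duplicates could not be removed. Near copies were found with BLAST 2.17.0 among GENCODE M21 transcripts (97% identity, 100 bases). Coordinates and promoters are RefSeq, GRCm38.p6. Steps were tested on simulated data.

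Named were, per complex, the most abundant gene, the 2 highest and the 2 lowest log2 ratios among genes of at least 5 RPKM, all genes of isoform pairs, genes under 0.5 RPKM, the extremes of other lists, and the regulators. Genes with an interval off 0, and Atp5a1, Uqcrc1, Ndufa11 and Suclg2, were named in addition after their values were seen. One gene that the rule names is not reported here. The gene set and lists were chosen with earlier results of these data known. Alternatives were other minimums, scalings, depths, a pseudocount, and corrections for length, level and GC content.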

Additional observations from a re-analysis of the deposited data

How the results depend on the processing

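The results were computed again under 16 other settings, giving 141 values. Of these, 131 stayed close to the main value (for a median, within its order-statistic interval over the members, and for a count, within 1.5 times). That interval is taken over genes, which are not replicates, and it is wide for small lists. For complexes II and III and the complex I assembly factors it ran from the lowest to the highest member. Their medians could thus hardly count as moved, and these counts do not show that the medians are stable. The median of complex III took either sign, from -0.028 to 0.012. That of complex IV ranged from 0.0021 (corrected for mean level) to 0.076 (without near copies) and that of complex V from -0.057 to -0.0063. Medians moved in 2 of 83 cases, both under correction for mean level, to -0.075 for complex I and -0.047 for the whole set. Over all settings the median of the set ranged from -0.047 to -0.0094. The number of genes past the fold was 5 at a fold of 1.2 and 2 with no minimum, the latter being Cox7b2 and Cox8b. The number of genes with the lower mean was 36 without members that have a near copy, of 60 left. Counting intervals above 0 numbered 3 at 0.5 times the estimated depth. Intervals below 0 numbered 3 at 0.5 times and 21 at 2 times that depth, 5 with CUMS rescaled so that all genes center on 0, and 5 without members that have a near copy. The correction for GC content and the settings without near copies were chosen after seeing the data. No paired analysis was possible because each group has a single deposited mean per gene, and for the same reason no library could be left out and the limma fit was not run. Depth limits the genes under 10 RPKM most.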

Other observations

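Enzymes that feed the respiratory chain were also at near-equal levels in both groups. The 16 genes of the TCA cycle and pyruvate dehydrogenase had a median log2 ratio of -0.018, from Ogdh (2-oxoglutarate dehydrogenase) with 56.2 RPKM in control and 51.4 RPKM in CUMS (-0.13, interval -0.18 to -0.074) to Sucla2 (a succinyl-CoA ligase subunit) with 40.9 RPKM and 45.1 RPKM (0.14, interval 0.031 to 0.25). Suclg2 was listed at the same level in both. The 17 genes of mitochondrial membrane transport had a median of 0.034, from Timm50 of the inner membrane translocase with 25.9 RPKM and 21.8 RPKM (-0.25, interval -0.45 to -0.051) to Tomm70a, an import receptor, with 42.2 RPKM and 48.1 RPKM (0.19, interval 0.11 to 0.27). The 16 glycolytic genes had a median of 0.025, from Aldoc, the aldolase of astrocytes, with 491 RPKM and 438 RPKM (-0.17, interval -0.20 to -0.13) to Pfkp, a phosphofructokinase, with 75.6 RPKM and 86.8 RPKM (0.20, interval 0.14 to 0.26).

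Other large protein machines were described in the same way. The median log2 ratio was -0.041 for 77 cytosolic ribosomal protein genes (52 lower in CUMS), 0.0066 for the 38 proteasome genes tested (15 lower) and 0.011 for 76 mitochondrial ribosomal protein genes (33 lower). Whether these lists differ from the oxidative phosphorylation genes was not tested. The remaining marker lists had medians of 0.026 (8 astrocyte genes), 0.083 (8 microglia genes) and -0.12 (7 endothelial genes).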
